A study of Mus musculus with 8 samples.

Results

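Ribosomal proteins of the cytosol are the protein components of the ribosome, which makes all other proteins of the cell. The members described here are the genes whose single symbol on the MOE430A array is that of a large subunit protein (Rpl), a small subunit protein (Rps, with Rpsa) or a stalk protein (Rplp). For each gene the probe set of highest mean signal over the 8 arrays was taken, among probe sets called Present on at least 2 arrays. This gave 42 genes of 7578 with a usable probe set: 20 of the large subunit, 20 of the small subunit and the stalk genes Rplp0 and Rplp2. Rpl3l, Rpl39l and Rps4l, relatives of Rpl3, Rpl39 and Rps4x, were called Present on 0 arrays and fell outside the rule. Rpl14 was the member closest to the limit, with a Present call on 2 arrays, and 38 members were called Present on all 8.

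The arrays measured dendritic cells grown in culture from bone marrow of male mice, 9 weeks old. VDRwt cells carried the normal vitamin D receptor, and VDRmut cells came from mice whose receptor lacks its DNA-binding domain, per the study cited in the labels. Cells of each genotype were left untreated, given VD3 (the active hormone 1,25-dihydroxyvitamin D3, 1e-06 M), given TNFa (the inflammatory cytokine, 50 ng/ml for 4 h), or given VD3 for 30 min and then TNFa. Treatment started on day 7 of differentiation under GM-CSF, and all cultures had first been expanded with SCF, Flt-3L, IL-6, IGF-1, dexamethasone and GM-CSF. Each of the 8 combinations had 1 array, so the genotypes served as the repeats of a treatment. The labels do not say how many animals or cultures an array stands for, so the p-values reflect the spread among 8 arrays alone, and that spread may be technical.

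A ribosome holds 1 copy of nearly every ribosomal protein, and cells make the proteins in matched amounts together with ribosomal RNA. Many of these messages begin with a C followed by a run of pyrimidines, the 5' terminal oligopyrimidine tract, through which mTOR signalling and the protein Larp1 set their translation. Myc is a known activator of ribosomal protein and ribosome assembly genes. Growing and activated immune cells are known for high output of ribosomes, and several ribosomal proteins act outside the ribosome, among them Rpl11, which binds Mdm2 and so stabilises p53.

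The promoters are shown for the genes whose probe sets passed a test below, because the pyrimidine tract lies at the transcription start. A RefSeq promoter (GRCm38.p6) was at hand for 37 of the 42 genes. Each line runs 5' to 3' on the gene's strand from 60 bases before the annotated start to 30 bases from the start on, and capitals mark a run that begins with C within 5 bases of the start and goes on with at least 4 pyrimidines.
Rpl27a, chr7:109519135-109519224, plus strand: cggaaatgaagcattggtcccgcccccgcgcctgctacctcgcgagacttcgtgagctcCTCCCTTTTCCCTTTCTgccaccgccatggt
Rps18, chr17:33955636-33955725, minus strand: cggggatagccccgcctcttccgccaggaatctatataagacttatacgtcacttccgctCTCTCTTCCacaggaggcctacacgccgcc
Rps27l, chr9:66946026-66946115, plus strand: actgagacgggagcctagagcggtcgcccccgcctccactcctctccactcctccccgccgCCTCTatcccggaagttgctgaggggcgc
Rps19, chr7:24884532-24884621, plus strand: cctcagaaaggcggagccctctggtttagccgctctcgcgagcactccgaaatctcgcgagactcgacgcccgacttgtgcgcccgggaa
The run was 17 bases long in Rpl27a, 9 in Rps18 and 5 at the Rps27l start shown. The other annotated start of Rps27l and all 3 annotated starts of Rps19 had no such run, which says only that these letters are not at those annotated positions.

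Such a run stood at a start of 19 of the 37 member genes (51.4%), against 21.2% of the 27025 genes in the promoter table. The letters CCGGAAG, the core that ETS factors bind, were found on either strand within 250 bases before to 50 after the start of 19 member genes (51.4%), against 9.93% of all genes. For AAGATGG, the core of the YY1 motif, the shares were 16.2% of members and 7.28% of all genes. The GC box GGGCGG stood in 56.8% of members and 38.2% of all genes, and TATAAA in 13.5% and 15.7%. None of the 4 letter strings contains another, and these matches are descriptions of the sequence only.

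Most members were bright, which the rule favours because it takes the brightest probe set of each gene. The mean signal over 8 arrays was between 975.6 and 8900 for 35 members. The other 7 members (Rps27, Rps6, Rpl14, Rpl39, Rps25, Rpl12 and Rpl27a) had means of 40.69 to 268.9. Each of these 7 genes is also named, with other symbols, on a brighter probe set outside the rule, for example a mean signal of 8872 for a probe set that lists Rps6 and 4502 for one that lists Rpl27a. Signals of different probe sets are not on a common scale of transcript number, so these values say only which probe set the rule picked. The highest array stood over the lowest by a median of 1.72-fold for the 42 members and 2.17-fold for all 12832 probe sets tested. The latter include dim probe sets and were not matched to the members in signal. The lower ratio is thus not shown to be particular to ribosomal protein genes. The ratio was at most 2-fold for 32 members and above 3-fold for 2, Rpl27a at 5.74-fold and Rpl39 at 3.15-fold.

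Summed over the 42 members, the signal made up 2.63% (untreated), 2.79% (VD3), 2.93% (TNFa) and 2.42% (VD3+TNFa) of the signal of all probe sets other than controls on the VDRwt arrays. On the VDRmut arrays the shares were 3.3%, 2.77%, 2.98% and 2.67% in the same order. The VDRmut untreated array was thus the highest and the VDRwt VD3+TNFa array the lowest. Large subunit genes held 1.06% to 1.42%, small subunit genes 1.17% to 1.66% and the stalk pair 0.186% to 0.247% of the signal. Both subunits had their highest and lowest share on those same arrays, whereas the stalk share was highest on the VDRwt VD3 array. In bulk RNA such a share cannot tell apart fewer cells rich in these messages and less of the message per cell.

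Gene by gene the same arrays stood at the ends. The VDRmut untreated array gave the highest signal for 24 of the 42 members, and the VDRwt VD3+TNFa array gave the lowest for 20. The median member lay 0.330 (log2) above its own 8-array mean on the former and 0.276 below it on the latter (median -0.276). On the other 6 arrays this median was between -0.106 and 0.125.

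**Figure D1:**
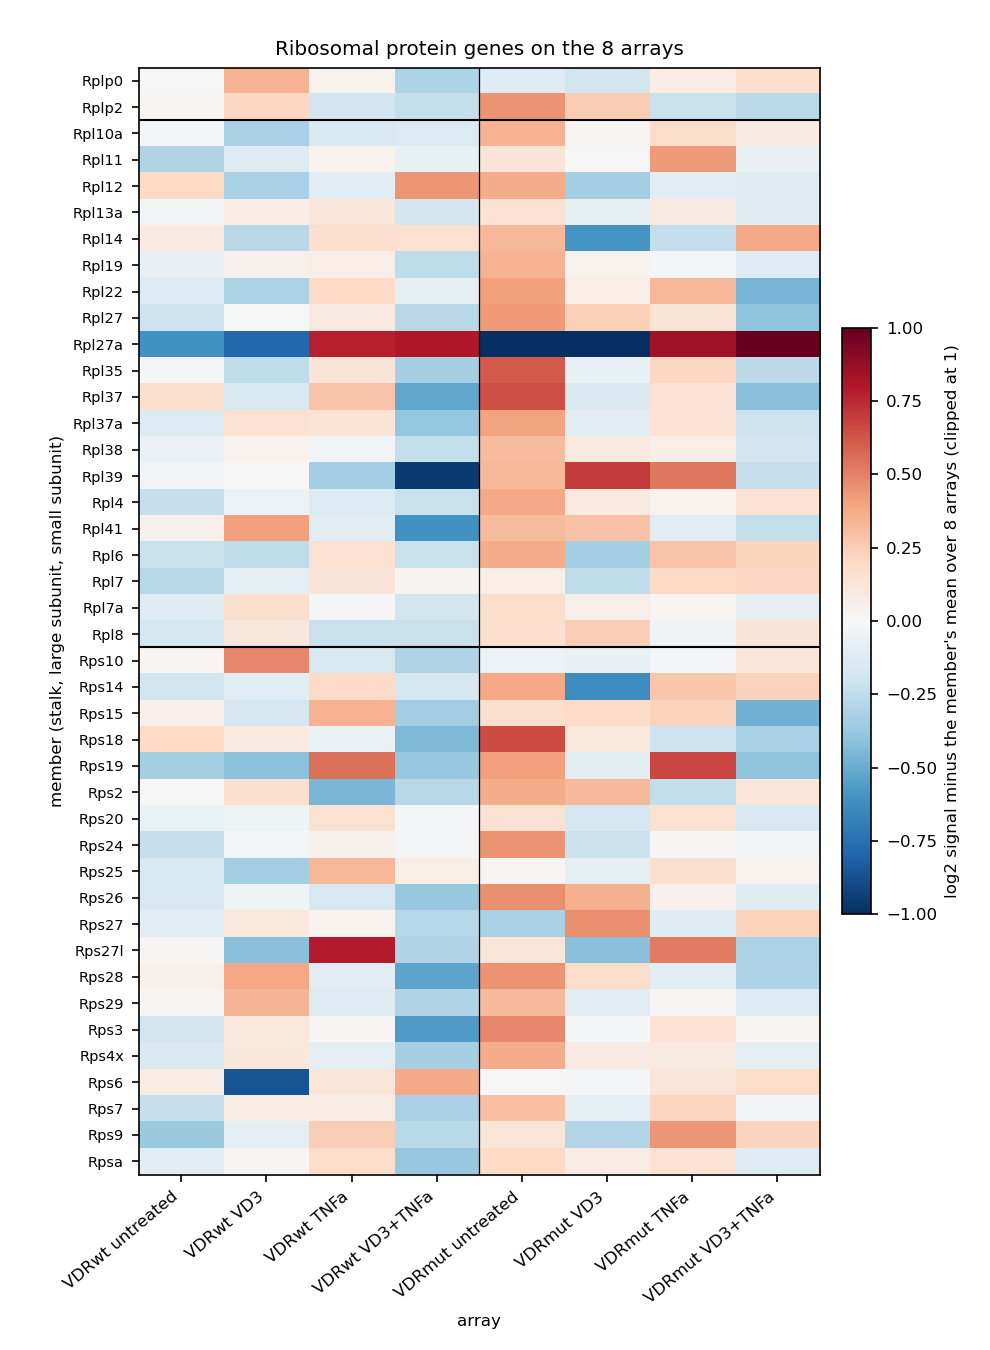
Each row is 1 of the 42 members and each column 1 array, and the colour is the log2 signal minus the member's mean over the 8 arrays, clipped at 1. The VDRmut untreated column is mostly red (median 0.330) and the VDRwt VD3+TNFa column mostly blue (median -0.276). Rpl27a stands apart from the other members.

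The control probe sets for 18S RNA, the ribosomal RNA of the small subunit, varied far more between arrays than the ribosomal protein genes did. The 18S 5' probe set gave 21.1 (untreated), 72.6 (VD3), 9028.2 (TNFa) and 224.0 (VD3+TNFa) for VDRwt cells. For VDRmut cells it gave 3.5, 32.7, 6847.0 and 58.2. Both arrays of TNFa without VD3 lay far above the other 6. The middle 18S probe set gave 7629.2 and 5204.9 on those arrays and 7.4 to 161.2 on the other 6, and the 3' probe set gave 8510.7 and 7128.9 against 50.5 to 1121.3. Per the labels the arrays were labelled from an oligo(dT) primer, so 18S RNA, which has no poly(A) tail, was not the intended target. The members' share on the arrays of TNFa without VD3, 2.93% in VDRwt and 2.98% in VDRmut, was exceeded only on the untreated VDRmut array (3.3%). Like the 18S signals, that share was lower with VD3+TNFa in both genotypes (2.42% and 2.67%). Whether the 18S signal has a part in this was not tested. High 18S signal and TNFa without VD3 cannot be told apart in these data, and every comparison that uses these 2 arrays carries it.

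Other controls set single arrays apart. For beta-actin the 5'/3' signal ratio, a sign of RNA integrity and labelling, was 0.444 in untreated VDRmut cells and 0.449 in VDRmut cells with VD3+TNFa. It lay between 0.781 and 0.889 elsewhere. The Gapdh ratio lay between 1.153 and 1.385 on all arrays. The array of highest member signal is thus 1 of the 2 arrays of low actin ratio. The array of lowest member signal, VDRwt VD3+TNFa, was the only array with a recorded fluidics protocol other than that of the remaining VDRwt arrays, and no protocol is recorded for VDRmut. Scan day separates the VDRwt arrays with TNFa from those without, and none is recorded for VDRmut. The part of these differences in the members' levels was not tested beyond the alternatives named below.

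**Figure D2:**
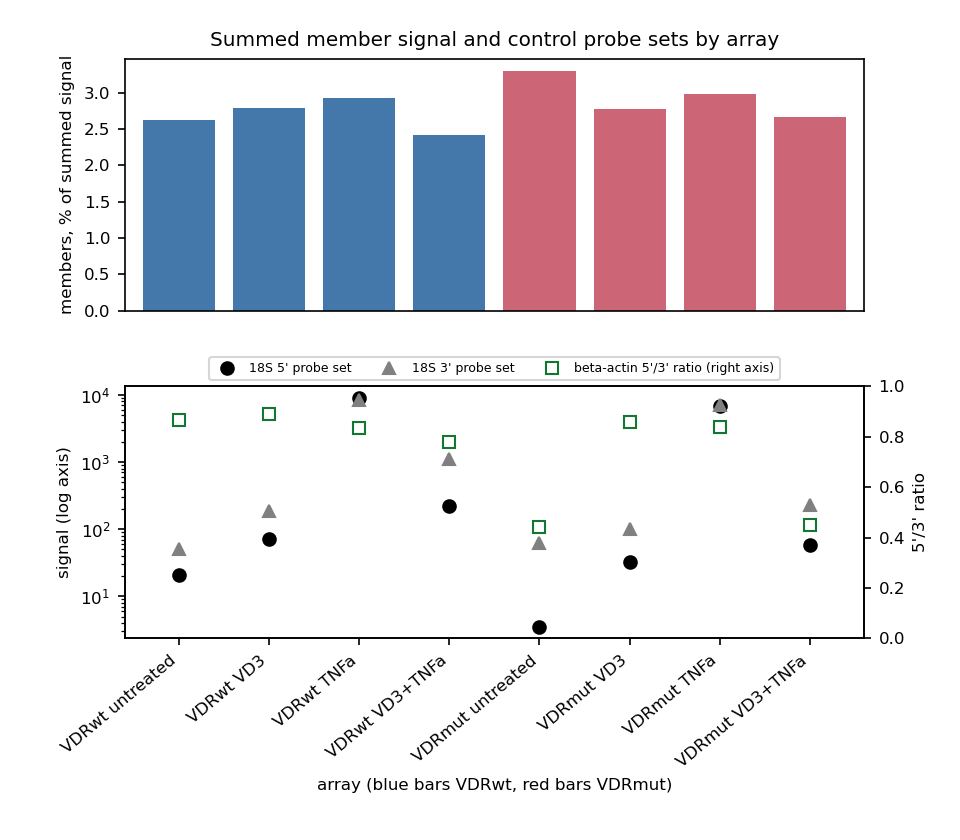
The upper bars give the share of the summed signal held by the 42 members on each array (in %, blue VDRwt, red VDRmut). Below are the 18S probe sets (left axis, log scale) and the beta-actin 5'/3' ratio (squares, right axis). The 18S 5' signal is 9028.2 and 6847.0 on the TNFa arrays, while the members' share stays between 2.42% and 3.3% on all arrays.

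The cells carried dendritic cell genes on all arrays. Itgax, H2-Ab1 and Cd74, which mark antigen-presenting dendritic cells, were called Present on 8 arrays and Flt3 on 3. Macrophage and monocyte markers were present as well: 8 of 10 on the array passed the filter, with a summed signal of 18239 to 35337, and Csf1r (3796 to 5719) and Adgre1 (634.4 to 1861) were called Present on all 8 arrays. Neutrophil and granulocyte precursor markers were present too (11 of 13 on the array passed the filter). Their summed signal was 3731 to 10649 in VDRwt and 13393 to 32078 in VDRmut, lowest in each genotype with TNFa alone. Of the T, NK and B cell markers, 8 of 10 were called Present on 0 arrays. A probe set for Vdr gave 93.7, 185.7, 33.2 and 104.0 in VDRwt and 12.4, 67.2, 6.3 and 43.7 in VDRmut, in the order untreated, VD3, TNFa, VD3+TNFa. The signals 33.2, 12.4, 6.3 and 43.7 were called Absent. Another Vdr probe set gave 147.0, 253.3, 51.9 and 164.8, and 52.4, 71.6, 14.4 and 53.5, of which 253.3 alone was called Present. Both probe sets were lower in VDRmut in each treatment. Their position in the gene is not given in the sources used here, so they do not check the deletion.

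TNFa given alone left nearly all members near their untreated level. Of the 42 members 1 was called higher and 0 lower by limma (Benjamini-Hochberg adjusted p under 0.05 over all probe sets), while 11.1% of all probe sets tested were called, 5.66% higher and 5.39% lower. The median member changed by -0.04 on the log2 scale and the median of all probe sets by 0.04. The genotypes differed in sign: the median was 0.14 in VDRwt, with 31 of 42 members higher, and -0.16 in VDRmut, with 29 lower. The test of that difference itself, TNFa by genotype, called 0 members and 0 of all probe sets (0 members and 619 of all probe sets at an unadjusted p under 0.05). The VDRmut pair includes the untreated array of low actin ratio.

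The 1 member that rose was Rpl27a, a large subunit protein. For VDRwt cells its signal was 143.0 (untreated), 126.8 (VD3), 373.5 (TNFa) and 379.7 (VD3+TNFa). For VDRmut cells it was 94.8, 98.9, 390.5 and 543.9. All 4 arrays with TNFa lay above all 4 arrays without it. The change was 1.71 ± 0.30 (log2, SE), 3.28-fold, with a limma adjusted p of 0.00859 for TNFa alone. With VD3 present it was 2.02 ± 0.30, 4.06-fold, with an adjusted p of 0.0352. VD3 made a difference of 0.31 ± 0.42 to the TNFa response, with an adjusted p of 0.72.

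This rise was seen on a dim probe set. The brighter probe set that lists Rpl27a with other symbols gave 4301.2, 5175.1, 4528.5 and 3979.9 in VDRwt and 4611.1, 4598.1, 4247.0 and 4575.3 in VDRmut, in the order above. Its change with TNFa alone was -0.02 ± 0.20 (adjusted p = 0.96). Arrays with and without TNFa overlapped on it. The 2 probe sets named for Rpl27a therefore gave different answers, and which transcripts each detects was not tested. The call for TNFa alone also missed the threshold without the VDRwt TNFa array (adjusted p = 0.0504). The call with VD3 present was lost without either VD3 array (0.153 for VDRwt and 0.243 for VDRmut) and without either VD3+TNFa array (0.101 and 0.236). When each array was left out in turn the change ran from 1.38 to 2.05 for TNFa alone and from 1.61 to 2.43 with VD3 present. With scan day as a block the changes were 2.10 (adjusted p = 0.0227) and 2.40 (adjusted p = 0.112). In that fit the TNFa change averaged over both VD3 states comes from the VDRmut arrays alone. No scan day is recorded for those, so the fit cannot check the VDRwt rise against scan day.

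With TNFa alone 5 members, Rpl27a among them, had an unadjusted p under 0.05, as did 3387 of the 12832 probe sets tested. Rps27l, a close relative of Rps27 that is a known p53 target gene, changed by 0.59 ± 0.20 (adjusted p = 0.0923). Rps19, which is mutated in many human patients with Diamond-Blackfan anaemia, changed by 0.57 ± 0.23 (adjusted p = 0.15). Rps2, a protein near the mRNA entry channel, changed by -0.54 ± 0.19 (adjusted p = 0.111). None of these passed over all probe sets. Rps9, which acts in decoding accuracy, changed by 0.47 ± 0.23 (adjusted p = 0.231) and the dim Rpl12, at the base of the stalk, by -0.39 ± 0.31 (adjusted p = 0.47).

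Rps18, a protein of the head of the small subunit and not the 18S RNA, was measured by 3 bright probe sets, and they differed in the call. The member probe set gave 5794.2, 5357.6, 4813.8 and 3701.0 in VDRwt and 7907.3, 5415.1, 4361.4 and 4017.6 in VDRmut (untreated, VD3, TNFa, VD3+TNFa). Its change with TNFa alone was -0.56 ± 0.21, with an adjusted p of 0.127. The next probe set gave 4066.8, 3885.6, 2464.8 and 2752.6, and 5919.3, 5641.2, 2522.8 and 2920.8. On this one, Rps18 fell by 0.98 on the log2 scale (SE 0.22, adjusted p = 0.0225). On the other, with signals of 3034.2 to 6200.5, it fell by 0.87 (SE 0.20, adjusted p = 0.0243). On both of these all arrays with TNFa lay below all arrays without it, as they did on the member probe set.

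**Figure D3:**
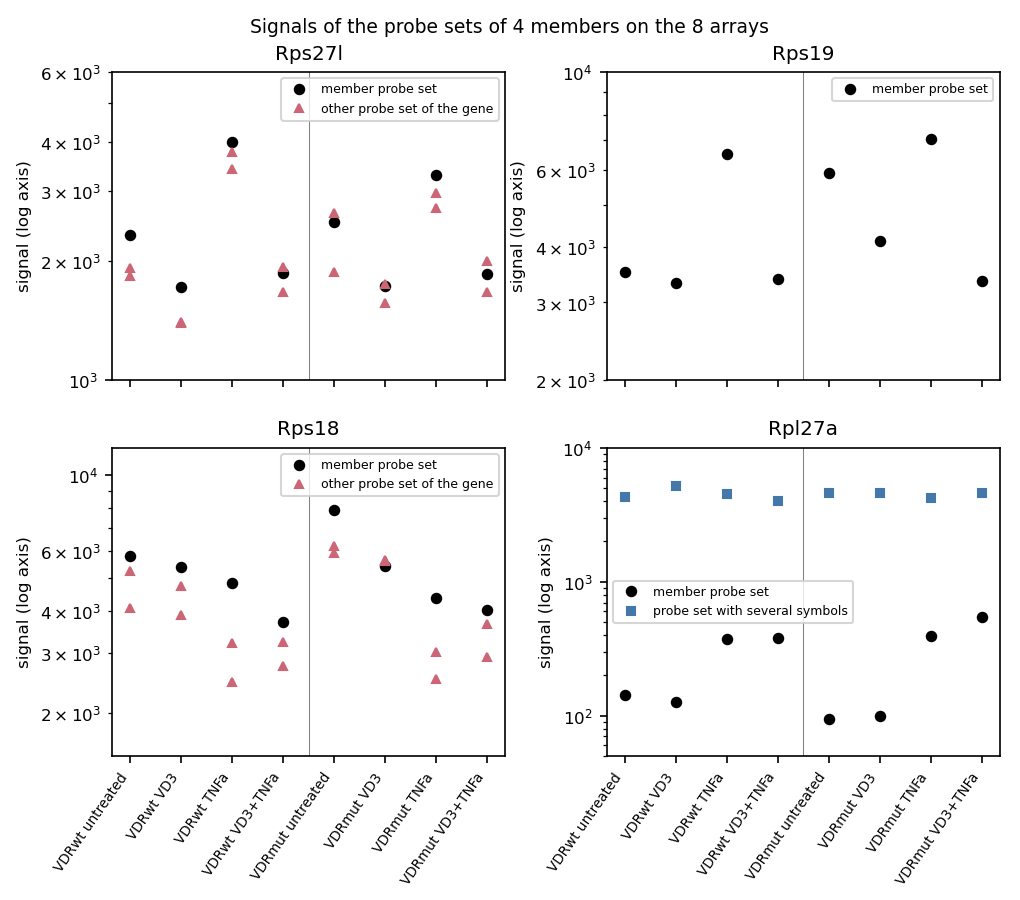
Signal (log axis) of each bright probe set of Rps27l, Rps19, Rps18 and Rpl27a on the 8 arrays. Circles are the members, triangles other probe sets with the same single symbol, and squares the probe set that lists Rpl27a among several symbols. The Rpl27a circles run from 94.8 to 543.9 while the squares stay between 3979.9 and 5175.1.

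Other genes were also measured more than once. Of the 42 members 19 had several passing probe sets, and all probe sets of a gene had 1 sign of change in 11 of the 19 for TNFa alone and in 9 of the 19 for VD3 in the presence of TNFa. Their changes spanned a median of 0.13 (log2) per gene in the first comparison and 0.52 in the second. The probe set that the rule picked ended in _x_at for 15 members, a suffix Affymetrix gives to probe sets with probes that also match other sequences. Ribosomal protein genes have many processed pseudogenes, so members of this kind are uncertain as to which copy was measured.

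With VD3 present, TNFa again left most members uncalled. Rpl27a was the 1 member called higher and 0 were lower, beside 0.803% of all probe sets called (0.639% higher and 0.164% lower). The median member changed by -0.20 and the median of all probe sets by -0.07, with 29 of 42 members below 0. Quantile normalization, which moved the median of all probe sets to 0.04, gave a member median of 0.03, so the direction of this shift depends on the scaling. Relative to all probe sets the members stood at -0.13 under the first scaling and -0.01 under the second.

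Rpl39, Rpl41 and Rps28 were furthest below. Rpl39, which lines the exit tunnel, gave 163.8, 166.3, 131.3 and 85.8 in VDRwt and 209.4, 270.6, 239.9 and 141.9 in VDRmut (untreated, VD3, TNFa, VD3+TNFa). The VD3+TNFa array was the lowest of its genotype in both. The change with VD3 present was -0.94 ± 0.25 (adjusted p = 0.0851). Rpl41, a peptide that bridges the subunits, gave 8827.3, 11423.8, 7950.3 and 5650.9 in VDRwt and 10695.7, 10493.1, 7914.0 and 7274.1 in VDRmut. On this probe set too VD3+TNFa was lowest in both genotypes, with a change of -0.77 ± 0.21 (adjusted p = 0.0924). Another bright Rpl41 probe set differed: VD3+TNFa was its lowest array in VDRwt (2311.4) but its highest in VDRmut (6315.2). Its change was -0.62 ± 0.56 (adjusted p = 0.532). Rps28, at the mRNA exit channel, changed by -0.70 ± 0.22 (adjusted p = 0.113). All 3 missed the threshold, and the brighter probe set that lists Rpl39 with another symbol changed by -0.20 ± 0.21 (adjusted p = 0.588). After Rpl27a, the members furthest above were the dim Rps6 (0.72 ± 0.29, adjusted p = 0.195), Rpl14 (0.70 ± 0.39, adjusted p = 0.311) and Rpl12 (0.49 ± 0.31, adjusted p = 0.376).

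The stalk proteins recruit elongation factors to the ribosome. Rplp2 gave 6484.9, 7382.8, 5589.8 and 5410.7 in VDRwt and 8760.0, 7640.7, 5476.4 and 5297.8 in VDRmut (untreated, VD3, TNFa, VD3+TNFa). All 4 arrays with TNFa lay below all 4 without it, with changes of -0.45 ± 0.21 without VD3 (adjusted p = 0.21) and -0.49 ± 0.21 with VD3 (adjusted p = 0.208). Rplp0, the base of the stalk, gave 7492.6, 9589.5, 7707.7 and 6067.1, and 6881.6, 6628.7, 7928.2 and 8429.5. Its order of arrays differed between genotypes: VD3+TNFa was the lowest array in VDRwt and the highest in VDRmut. The TNFa by genotype difference of Rplp0 was 0.59 ± 0.30 (adjusted p = 0.874).

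The test for VD3 given alone called 0 of the 42 members, and 0% of all probe sets tested were called (2 members and 977 of all probe sets at an unadjusted p under 0.05). Here and for VD3 with TNFa, VDRmut cells, whose receptor lacks its DNA-binding domain, served as the repeat of VDRwt cells. A VD3 change confined to VDRwt would be averaged with VDRmut and would widen the spread, so the test could miss it. The median member changed by -0.07 and the median probe set by 0.04. In VDRwt the median was 0.12, with 28 of 42 members higher with VD3. In VDRmut it was -0.29, with 37 of 42 lower, and the untreated array of that pair is the one of low actin ratio. Without both arrays of low actin ratio the fitted member median was 0.13. That fit holds no untreated VDRmut array, so it cannot check the change in VDRmut. The difference between genotypes itself, VD3 by genotype, called 0 members and 0% of all probe sets (0 members and 390 of all probe sets at an unadjusted p under 0.05), with a member median of -0.15.

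No single member passed the adjusted threshold with VD3 alone. The dim members Rpl14 and Rpl12 changed by -0.64 ± 0.39 (adjusted p = 0.649) and -0.62 ± 0.31 (adjusted p = 0.632). Rpl37 changed by -0.56 ± 0.22 (adjusted p = 0.629). Rps10 changed by 0.23 ± 0.25 (adjusted p = 0.784). Its VDRwt signal went from 5934.1 to 8210.2, and its VDRmut signal from 5629.2 to 5584.4. Its other passing probe sets did not show a rise of that size in VDRwt. They went from 4878.2 to 5102.1, 4072.9 to 3873.4, 3446.2 to 3407.7 and 626.2 to 401.3. Rps27 changed by 0.50 ± 0.28 (adjusted p = 0.64), and its relative Rps27l by -0.49 ± 0.20 (adjusted p = 0.629). Rpl39 changed by 0.20 ± 0.25 (adjusted p = 0.81) and Rpl8 by 0.19 ± 0.19 (adjusted p = 0.766).

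With VD3 given before TNFa, most members were lower than with TNFa alone. The median member changed by -0.22 and the median probe set by -0.03. In VDRwt 37 of 42 members were lower and in VDRmut 32, and 30 (71.4%) were lower in both, against 35.9% of all probe sets tested. The median was -0.30 in VDRwt and -0.13 in VDRmut. By subunit, 13 of 20 large subunit genes (65%) and 16 of 20 small subunit genes (80%) were lower in both genotypes. Among the 7 dim members it was 2, and among the 35 brighter members 28 (80%).

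Only 2 members were called lower and 0 higher, where 6.97% of all probe sets were called, 3.4% higher and 3.57% lower. The member median kept its sign, at -0.14, under quantile normalization, and it ran from -0.28 to -0.18 when each array was left out in turn. The TNFa arrays of this comparison are those of high 18S signal, and they also serve in the comparison of TNFa alone, so the values of a gene in both are not independent. The VDRwt pair was scanned on 1 day, so its median of -0.30 is also the value within that scan day. The VD3+TNFa array of that pair is the one with another fluidics protocol. In the VDRmut pair the VD3+TNFa array is 1 of the 2 of low actin ratio (0.449).

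Rps27l was 1 of the called members. For VDRwt cells its signal was 2320.3 (untreated), 1722.2 (VD3), 3987.3 (TNFa) and 1867.9 (VD3+TNFa). For VDRmut cells it was 2509.2, 1725.6, 3299.5 and 1852.1. All 4 arrays with VD3 lay below all 4 without it, and the TNFa arrays were the highest in both genotypes. In the presence of TNFa the gene fell by 0.96 on the log2 scale (SE 0.20), 1.95-fold, with a limma adjusted p of 0.0226. A further probe set of Rps27l changed by -0.87 ± 0.20 (adjusted p = 0.0374) and the remaining one by -0.77 ± 0.24 (adjusted p = 0.0948).

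Rps19 was the other. It gave 3520.0, 3326.3, 6505.0 and 3399.8 in VDRwt and 5887.8, 4126.0, 7053.0 and 3353.8 in VDRmut (untreated, VD3, TNFa, VD3+TNFa). The TNFa arrays were again the highest, and the VD3+TNFa arrays lay at or near the lowest value of each genotype. The gene fell by 1.00 (SE 0.23), 2.01-fold, with an adjusted p of 0.0344. Without the genotype block the adjusted p was 0.0569. Both calls were lost without the VDRwt TNFa array (adjusted p = 0.188 for Rps27l and 0.225 for Rps19), without the VDRwt VD3+TNFa array (0.156 and 0.111) and without the VDRmut VD3+TNFa array (0.175 and 0.302). The size of the change stayed between -1.12 and -0.81 for Rps27l and between -1.21 and -0.80 for Rps19 when each array was left out in turn. For Rps19 the VDRwt VD3 array (0.0502), the VDRmut VD3 array (0.0508) and the VDRmut TNFa array (0.0917) also ended the call when left out. Without both arrays of low actin ratio the adjusted p was 0.0742 for Rps27l and 0.163 for Rps19. Leaving out probe sets that end in _x_at or _s_at gave 0.0968 for Rps27l. With signals raised to a floor of 50, these calls and those of Rpl27a all missed the threshold (adjusted p 0.0643 to 0.123).

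Further members in this comparison missed the threshold. Rps15, which acts in the maturation of the small subunit, changed by -0.70 ± 0.21 (adjusted p = 0.0788), by -0.70 in VDRwt and -0.71 in VDRmut. Another bright Rps15 probe set fell less, from 2790.2 (TNFa) to 2219.6 (VD3+TNFa) in VDRwt and from 2702.1 to 2204.9 in VDRmut. Rpl37 changed by -0.69 ± 0.22 (adjusted p = 0.0985) and Rpl39 by -0.69 ± 0.25 (adjusted p = 0.135). At the other end Rpl14 changed by 0.30 ± 0.39 (adjusted p = 0.701), Rps2 by 0.27 ± 0.19 (adjusted p = 0.447), Rpl12 by 0.27 ± 0.31 (adjusted p = 0.67) and Rpl27a by 0.25 ± 0.30 (adjusted p = 0.674).

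**Figure D4:**
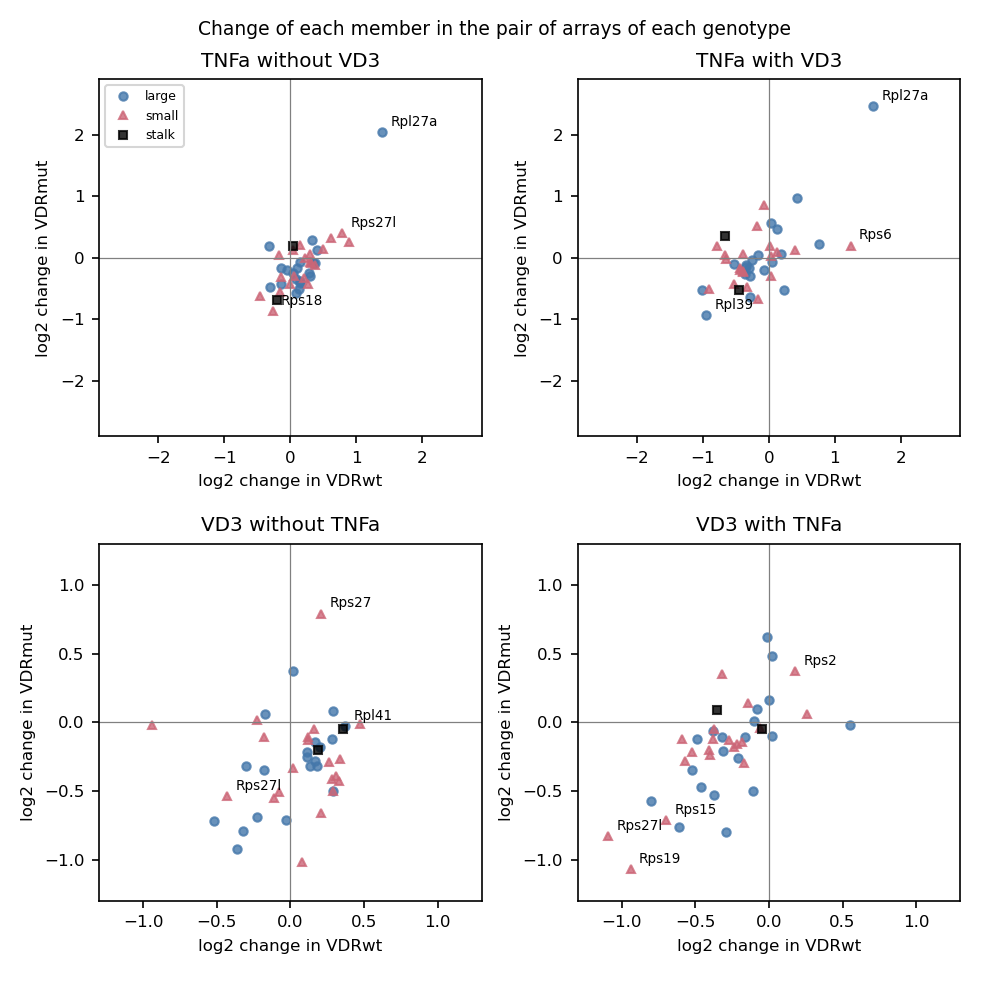
Log2 change of each member in the VDRwt pair (horizontal) and the VDRmut pair (vertical) of arrays for 4 comparisons, with circles for the large subunit, triangles for the small subunit and squares for the stalk. For VD3 with TNFa 30 of 42 members lie at the lower left, where Rps19 and Rps27l are furthest out. For TNFa without VD3 31 members lie above 0 in VDRwt and 29 below 0 in VDRmut, with Rpl27a far to the upper right.

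Probe sets that list several symbols, at least 1 of them a ribosomal protein, were outside the rule and are given beside it. There were 102, of which 93 passed the filter, and 27 ribosomal protein genes were seen on these alone. With VD3 before TNFa their median change was -0.14, with 2 called lower and 1 higher, where 3.57% of all probe sets were called lower and 3.4% higher. A probe set that lists Rps27 together with Rps27rt gave 2968.9, 3573.6, 5478.8 and 2289.2 in VDRwt and 5022.4, 3329.2, 5172.6 and 2560.5 in VDRmut (untreated, VD3, TNFa, VD3+TNFa). Its VD3+TNFa arrays were the lowest of each genotype, and it fell by 1.14 on the log2 scale (SE 0.25, adjusted p = 0.0284). On the dim member probe set of Rps27 the change was 0.02 ± 0.28 (adjusted p = 0.982), -0.32 in VDRwt and 0.35 in VDRmut. A probe set of the Rpl34 family fell by 0.85 (SE 0.21, adjusted p = 0.0426). A dim probe set that lists Rps6 with another symbol rose by 0.87 ± 0.22 (adjusted p = 0.0471). These 3 probe sets of several symbols were singled out after their values were seen.

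Whether VD3 changed the TNFa response itself, the VD3 by TNFa term, was called for 0 members, with 1.77% of all probe sets called (0.959% higher and 0.81% lower). The median member stood at -0.18 and the median probe set at -0.08. Within VDRwt the median was -0.43, with 36 of 42 members below 0. Within VDRmut it was 0.15, with 29 above 0. Rps19 stood at -0.71 ± 0.32 (adjusted p = 0.267) and Rps27l at -0.48 ± 0.28 (adjusted p = 0.375).

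Between genotypes, 35 of 42 members were higher in VDRmut on average, yet 0 were called, with 0.0623% of all probe sets called (0.0546% higher and 0.00779% lower). The member median was 0.13 and that of all probe sets 0.00. The excess came mostly from 1 pair: untreated cells had a median of 0.38 with 37 members higher, VD3 cells -0.00, TNFa cells 0.05 and VD3+TNFa cells 0.18. The VDRmut arrays of the untreated and VD3+TNFa pairs, those of the larger medians, are the ones of low actin ratio. In the VD3+TNFa pair the VDRmut array itself lay below the members' own means (median -0.106). The VDRwt array of that pair, the one with another fluidics protocol, lay lower still (-0.276). Without both arrays of low ratio the member median was 0.00, in a fit whose genotype pairs are only the VD3 and TNFa pairs given above. Quantile normalization gave 0.05. Neutrophil and granulocyte markers also differed here, with 6 of 11 called higher in VDRmut and a median of 1.41, and their part in the members' levels was not tested.

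Rpl39 had the smallest p of the members between genotypes. It was higher in VDRmut in all 4 treatments, by 0.35, 0.70, 0.87 and 0.73 on the log2 scale (untreated, VD3, TNFa, VD3+TNFa). Its mean change was 0.66 ± 0.17 with an adjusted p of 0.6. Rpl10a, a protein that some mouse stem cell ribosomes were reported to lack, was higher by 0.22 to 0.36 in all 4 pairs (0.32 ± 0.13, adjusted p = 0.663). Rps26 stood at 0.37 ± 0.14 (adjusted p = 0.636) and Rpl4, which narrows the exit tunnel, at 0.33 ± 0.14 (adjusted p = 0.677). The brighter probe set that lists Rpl39 with another symbol stood at -0.10 ± 0.15 (adjusted p = 0.912). At the low end were Rpl12 (-0.10 ± 0.22, adjusted p = 0.949), Rpl27a (-0.09 ± 0.21, adjusted p = 0.949), Rpl14 (-0.06 ± 0.27, adjusted p = 0.977) and Rplp0 (-0.04 ± 0.18, adjusted p = 0.981).

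Some members are known for roles outside the ribosome or in selective translation. The ranges of their member probe sets over the 8 arrays stood on both sides of the member median of 1.72-fold. Rpl13a, which joins an inhibitor complex in human monocytes after interferon gamma, ran from 4765.5 to 6003.5, a ratio of 1.26-fold between the highest and the lowest array. Another bright Rpl13a probe set varied more, from 2549.9 to 3904.2. Rpl38, needed in mouse embryos for translation of Hox messages, ran from 6249.0 to 9183.0 (1.47-fold). Rpl11 ran from 2987.0 to 4924.2 (1.65-fold), lowest in untreated VDRwt and highest in VDRmut with TNFa. Rps3, which lines the mRNA entry channel, ran from 2772.7 to 5727.1 (2.07-fold), highest in untreated VDRmut and lowest in VDRwt with VD3+TNFa. Rpl22, needed for alpha-beta T cell development in mice, ran from 1226.7 to 2256.2 (1.84-fold). The dim Rps25, used by some viral internal ribosome entry sites, ran from 167.6 to 266.2 (1.59-fold). The dim Rps6, the protein phosphorylated by S6 kinase below mTOR, lay between 203.9 and 268.2 on 7 arrays and at 113.4 on the VDRwt VD3 array (2.37-fold). Rps4x, a small subunit protein with an X-linked gene, ran from 4461.6 to 7268.0 (1.63-fold).

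Genes that build the ribosome were called in both directions with TNFa alone, the comparison with 11.1% of probe sets called. Of 58 ribosome biogenesis factors tested 1 rose and 4 fell, a smaller share than over all probe sets. Sbds, which frees the new large subunit for use, rose 2.59-fold (adjusted p = 0.0078). Utp3 fell by 1.32 (SE 0.23, adjusted p = 0.00872) and Nhp2, of the box H/ACA particle that modifies ribosomal RNA, by 1.10 (SE 0.20, adjusted p = 0.0103). Noc4l fell by 0.99 (adjusted p = 0.0356) and Fbl, the methylase of ribosomal RNA, by 0.93 (adjusted p = 0.0498). With VD3 before TNFa, compared with TNFa alone, Nhp2 rose by 0.91 ± 0.20 (adjusted p = 0.0291), Pes1 rose by 1.03 ± 0.22 (adjusted p = 0.0269) and Sbds fell by 1.11 (SE 0.23, adjusted p = 0.0244). Thus 2 of the 58 rose and 1 fell, near or under the 3.4% called higher and 3.57% called lower over all probe sets.

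Among regulators of growth the changes reached over 4-fold. Of 16 tested, 1 rose and 3 fell with TNFa alone, where 11.1% of all probe sets were called, 5.66% higher and 5.39% lower. Myc, called Present on 6 arrays, fell by 2.26 on the log2 scale, 4.78-fold (SE 0.32, adjusted p = 0.00375). Eif4ebp1, the inhibitor of cap-dependent translation below mTOR, fell by 1.10 (adjusted p = 0.0164). Deptor, an mTOR inhibitor, fell by 2.01 (adjusted p = 0.0142) but was called Present on 2 arrays only. Pdcd4, an inhibitor of the helicase Eif4a, rose by 1.35 ± 0.25 (adjusted p = 0.0103). With VD3 before TNFa, Myc rose 4.46-fold against TNFa alone (adjusted p = 0.00723), Eif4ebp1 rose 2.48-fold (adjusted p = 0.0124) and Eif4ebp2 fell by 1.75 (adjusted p = 0.0396). These comparisons share the TNFa arrays. The VD3 by TNFa term of Myc was 2.20 ± 0.45 (adjusted p = 0.0491).

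The remaining lists are given for TNFa alone, where 5.66% of all probe sets were called higher and 5.39% lower. Of 71 mitochondrial ribosomal proteins, which serve the separate ribosome of mitochondria, 6 fell and 0 rose. The list's median was -0.26, with -0.03 in the VDRwt pair and -0.44 in the VDRmut pair, which holds the untreated array of low actin ratio. Mrpl52 fell by 1.03 (adjusted p = 0.0157) and Mrpl2 by 0.97 (adjusted p = 0.0295). Of 35 genes on the initiation factor list, which was drawn by symbol (Eif), 1 rose (Eif4a2, by 0.93 ± 0.21, adjusted p = 0.0252) and 2 fell. Those that fell were Eif3d, by 0.71 (adjusted p = 0.0499), and Eif4ebp1. The latter is an inhibitor and not an initiation factor, and it was already counted among the regulators of growth. Of 7 elongation factors Eif5a fell by 0.87 (adjusted p = 0.0322), and with VD3 before TNFa it rose by 0.89 ± 0.21 (adjusted p = 0.0394). None of 19 other messages with a pyrimidine tract, 13 genes of RNA polymerase I and its factors or 3 ribosomal proteins outside the symbol rule was called, with medians of 0.12, 0.04 and 0.13. Among those 3, Rpl22l1, the relative of Rpl22, changed by 0.03 ± 0.27 (adjusted p = 0.957).

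Cell type markers moved in the same comparisons as the calls above. With TNFa alone, 7 of 16 dendritic cell markers rose and 1 fell, 7 of 11 neutrophil and granulocyte markers fell and 4 of 8 macrophage and monocyte markers fell. Of all probe sets 5.66% were called higher and 5.39% lower. The dendritic cell marker that fell was Itgax, by 1.88 (adjusted p = 0.00235). In the same comparison 0 of 2 T, NK and B cell markers, 0 of 3 erythroid and megakaryocyte markers and 0 of 2 stromal markers were called, while 1 of 3 mast cell and basophil markers, Cpa3, rose. With VD3 before TNFa, 3.4% of all probe sets were called higher and 3.57% lower. There 5 of 16 dendritic cell markers fell and 1 rose, 6 of 11 neutrophil and 2 of 8 macrophage markers rose, and Cpa3 fell. Ccr7, the receptor that guides mature dendritic cells to lymph nodes, rose 4.29-fold with TNFa (adjusted p = 0.00421). Cd177, a neutrophil surface protein, fell by 2.34 (adjusted p = 0.00187). What part these shifts have in the levels of Rps19, Rps27l and Rpl27a was not tested.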

How the data were processed

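RNA was measured on 8 Affymetrix MOE430A arrays, grouped by sample title. For each of 22690 probe sets the deposited tables give an intensity (linear signal) with its detection call, per the file headers, and the submitters' processing notes name MAS5. The 2% trimmed mean of each array was 200.1, so arrays were scaled to one level before deposit, and 46.45% to 51.54% of probe sets were called Present. Precision is limited by the number of arrays.

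Signals were rescaled to that mean, raised to 0.1 where listed at 0 (3 signals) and put on the log2 scale. Probe sets with at least 2 Present calls (12832) went into linear models (limma 3.58.1, R 4.3.3, lmFit and eBayes with trend) with genotype as the block of the 4 treatments (3 residual degrees of freedom, 2 with a genotype interaction). Benjamini-Hochberg adjustment ran over all probe sets at a threshold of 0.05, and ± gives limma standard errors. Genotype pairs the arrays only by shared label. Genes were named from probe sets with 1 symbol in the platform annotation (20393 of 22690), and all 42 members matched RefSeq. Members, lists and model were chosen with earlier results of these data known. Named in the text were the stalk genes, all called members, the 4 highest and 4 lowest changes of 5 comparisons, paralogs, members with known extra roles, and the called and extreme genes of each list. The fits were tested on simulated data. Alternatives were a floor of 50, no Present filter, quantile normalization, the mean over probe sets, no _x_at or _s_at probe sets, no genotype block, scan day as a block, and arrays left out. With scan day as a block, VDRwt arrays with and without TNFa have separate terms, so the average TNFa change rests on VDRmut. Chosen after the data were seen were members of mean signal 300 or more, members together with probe sets of several symbols, and a fit without both arrays of high 18S signal. Promoters came from RefSeq, and protein sequences were not used here.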

Additional observations from a re-analysis of the deposited data

How the results depend on the processing

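Over the alternatives, 255 member counts, medians and shares were labelled as near their first value and 37 as moved. A median was labelled near when it moved by less than the SD between the medians of the array pairs. A median could thus change sign and be labelled near, as for TNFa alone (-0.04, and 0.08 under quantile normalization). A count that stayed at 0 was also labelled near. Among the 4 called changes 40 values kept the call, 25 lost it and 0 changed sign. With TNFa alone the count of called members (1) became 0 with a floor of 50 and with members of mean signal 300 or more, 2 without _x_at and _s_at probe sets, and 0 to 1 when single arrays were left out. TNFa with VD3 (1 called) gave 0 with a floor of 50, without a Present filter, with scan day as a block and with the brighter members, and 0 to 1 without single arrays. Its median of -0.20 became 0.03 under quantile normalization and ran from -0.29 to -0.04 without single arrays. VD3 with TNFa (2 called) gave 0 with a floor of 50 and without both arrays of low actin ratio, 1 without a Present filter, 1 without _x_at and _s_at probe sets, 1 with no genotype block, 5 with probe sets of several symbols added, and 0 to 2 without single arrays. The genotype block changed no other count of called members among the treatment comparisons. The summed share (2.97%, 2.78%, 2.96% and 2.54% for untreated, VD3, TNFa and VD3+TNFa, mean of both genotypes) became 5.00%, 4.55%, 4.91% and 4.22% with all member probe sets and 1.99%, 1.88%, 2.02% and 1.72% without _x_at and _s_at probe sets. Quantile normalization gave 2.65%, 3.06% and 2.74% for VD3, TNFa and VD3+TNFa, so the order of VD3 and VD3+TNFa depends on the scaling.

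Over all probe sets, calls with TNFa alone went from 1418 to 512 with a floor of 50, to 341 with scan day as a block, to 935 with the mean over probe sets (7578 genes tested), and to between 365 and 1089 without single arrays. Calls for VD3 with TNFa went from 894 to 96 with the floor, to 578 without a Present filter, and to between 104 and 1176 without single arrays. Those for TNFa with VD3 went from 103 to 1 with the floor, 1 with scan day as a block, 6 without a Present filter, 20 with the mean over probe sets, 43 without _x_at and _s_at probe sets, 40 with no genotype block, 168 without both arrays of low actin ratio and 0 to 692 without single arrays. VD3 by TNFa calls went from 227 to 10 with the floor, to 56 without a Present filter, 127 with no genotype block, 136 with scan day as a block, 144 without both arrays of low actin ratio and 7 to 470 without single arrays. Genotype calls went from 8 to 0 with the floor, 3 without a Present filter, 4 with scan day as a block and 2 to 8 without single arrays. Where 0 were called, VD3 without TNFa gave 1 with the floor and 0 to 59 without single arrays, and VD3 by genotype gave 0 to 18. The causes were not tested. With 1 array per condition, signal over background limits the 7 dim members most.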
